A study of Mus musculus with 98 samples.

Results

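The 9 genes examined in the thymic stroma of the mouse encode secreted proteins of the bone morphogenetic protein (BMP) system. They are the ligands Bmp2, Bmp4, Bmp5, Bmp6 and Bmp7, the antagonists Grem1, Nog and Fst, and the related factor Gdf10. The genes were chosen by name, and all 9 of them were present among the 22231 genes of the single-cell age series, the 20760 genes of the newborn single-cell data and the 39179 genes of the bulk data. The age series held sorted Ter119-CD45-EpCAM- nonepithelial thymic stroma (NETS) of wild-type C57BL/6 mice at embryonic stages E12.5 and E13.5 (1 library each, pooled thymi), E16.5, birth (P0) and 4 weeks (W4; 2 libraries at each of these ages). The newborn data held sorted Ter119-CD45- cells, fixed in RNAprotect and including the epithelium, from 3 Tbx1+/-Crkl+/- mice (Het) and 3 wild-type (WT) littermates, where the Het mice carried a lacZ knock-in at Tbx1 and a germline null allele of Crkl in every cell. The bulk RNA-seq data held 84 libraries of wild-type mice, 6 for each of 14 groups: cortical and medullary thymic epithelial cells (cTEC and mTEC), CD31+ endothelium, Ly51+gp38- mural cells, and gp38+CD26+ and gp38+CD26- fibroblasts at P0 and W4, with mTEChi and mTEClo in addition at W4.

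BMP ligands are secreted dimers that bring together type I and type II receptor kinases, which phosphorylate Smad1, Smad5 and Smad9 and so induce target genes such as Id1, Id2 and Id3. Antagonists bind the ligands outside the cell: noggin (Nog) and gremlin (Grem1) bind BMPs directly, whereas follistatin (Fst) binds activins most tightly and BMPs less so. In the thymus, Bmp4 from the mesenchyme and the endothelium is known for acting on thymic epithelial cells, in which it sustains Foxn1, the transcription factor that defines them.

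The genes lie on 5 chromosomes of the GRCm38 build: Bmp2 at chr2:133552159-133562885, Grem1 at chr2:113746164-113758646 and Bmp7 at chr2:172868012-172940321, Bmp4 at chr14:46383520-46390669 and Gdf10 at chr14:33923587-33937983, Fst at chr13:114452290-114458951 and Bmp6 at chr13:38345107-38500302, Bmp5 at chr9:75775364-75900310, and Nog at chr11:89300638-89302332. The 250 bases upstream of the RefSeq start (GRCm38.p6) are shown for Bmp4 and Gdf10, since their levels moved in opposite directions with age in the medullary subtype MedFb1a and in pericytes. They are written 5′ to 3′ along the gene's strand, and capitals mark the 1 match in each window, on either strand, to GGAGCC, a GC-rich motif that Smad proteins can bind:
Bmp4 (chr14:46390670-46390919, minus strand): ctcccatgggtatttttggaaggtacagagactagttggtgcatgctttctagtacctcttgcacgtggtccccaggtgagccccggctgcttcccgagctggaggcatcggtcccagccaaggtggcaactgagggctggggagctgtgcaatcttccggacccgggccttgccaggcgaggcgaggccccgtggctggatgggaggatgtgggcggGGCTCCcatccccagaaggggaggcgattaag
Gdf10 (chr14:33923337-33923586, plus strand): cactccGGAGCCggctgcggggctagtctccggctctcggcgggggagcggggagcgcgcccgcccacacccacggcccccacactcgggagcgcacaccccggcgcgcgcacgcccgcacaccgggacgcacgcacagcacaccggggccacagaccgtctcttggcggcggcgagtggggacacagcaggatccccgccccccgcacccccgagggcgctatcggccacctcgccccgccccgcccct

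The GC content of these windows was 63.2% for Bmp4 and 78.8% for Gdf10. GGAGCC was present in 25.97% of all 32851 RefSeq promoter windows of this length, and the related motif GGCGCC, present in 9.59% of them, had no match in either window. A match is a description of the letters and not a bound site.

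The age series comprised 36208 cells in 19 subtypes named by the authors, with 28583048 to 93040640 unique molecular identifiers (UMIs) per library and medians of 10005 to 14031 UMIs per cell. The newborn libraries were shallower, with 4978011 to 31418527 UMIs and medians of 2391 to 4686 UMIs per cell over 21451 cells. The 83 bulk libraries that were used held 5785352 to 15852166 gene counts. A single library of gp38+CD26+ cells at W4 (replicate 2) held 25702 and was left out, so that this group had n = 5. The 2 libraries of E16.5 were closer to each other than any other pair of replicates, with a chi-square per degree of freedom of 3.07 against 11.8 to 75.7, but differed by more than sampling noise. Levels are given as CPM, the counts divided by the total and scaled to 1000000, of a subtype's or library's counts. In the single-cell data every gene is counted by its 3′ UMIs, whereas bulk levels depend on transcript length and are compared within a gene. Whether the 3′ ends of different genes are captured equally well was not tested. Rankings and sums of single-cell levels across genes are therefore a description of UMIs only.

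The ligands had their highest mean levels in mural cells, fibroblasts and endothelium (mean ± SD over 8 libraries). These levels are a description without a test, because the subtypes were clustered on the same counts. Bmp2 was highest in vascular smooth muscle (VSM; 57.4 ± 21.6 CPM) and Bmp4, the most abundant ligand of most fibroblast subtypes, was highest in the capsular fibroblast subtype CapFb1a (138 ± 69.7 CPM), followed by CapFb1b (132.01 ± 91.7 CPM) and CapFb1c (126 ± 68.3 CPM). Bmp4 was also present in the endothelial subtypes EnA and EnVL, at means of 72.7 and 72.4 CPM. Bmp5 was highest in VSM (27.8 ± 14.6 CPM) and pericytes (Pc; 17.9 ± 9.69 CPM). Bmp6 was highest in arterial endothelium (EnA; 63.6 ± 33.5 CPM), and Bmp7 in CapFb4 (142 ± 65.6 CPM). The order was separated by more than the spread for Bmp7, where no other subtype came within 1 SD of CapFb4 and the next level was 38.6 CPM in CapFb2b. In contrast, 7 of the other 18 subtypes lay within 1 SD of the highest for Bmp4, against 1 subtype each for Bmp2 (CapFb4), Bmp5 (Pc) and Bmp6 (the venous and lymphatic endothelium, EnVL).

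The antagonists were arranged differently. Fst was shared by the small neural crest population (NC; 173.3 ± 132.6 CPM) and the capsular subtypes CapFb4 (170 ± 105 CPM), CapFb3 (169 ± 104 CPM) and CapFb2b (150 CPM), and 7 subtypes lay within 1 SD of the highest. Its level in NC was 19.995 and 31.3 CPM at E12.5 and E13.5 (259 and 293 cells) and between 107.5 and 413 CPM in the later libraries of 7 to 39 cells. Age and number of cells cannot be told apart here. When the UMIs of all libraries were pooled, the level of Fst in NC was 53.0 CPM. Grem1 and Nog were rare transcripts. Grem1 averaged 12.501 ± 19.5 CPM in Pc, its highest subtype, and Nog 12.3 ± 14.4 CPM in NC (55 UMIs in all), and for both genes all 18 other subtypes lay within 1 SD. Gdf10, which is closest in sequence to Bmp3 and not a classical BMP agonist, was the most abundant of the genes, at 329 ± 189 CPM in CapFb3, 190.8 CPM in CapFb2b, 180 CPM in CapFb2a and 171 CPM in CapFb1a. It was between 9.1 and 15.5 CPM in the mesothelium (Mes), VSM and the 3 endothelial subtypes.

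**Figure D1:**
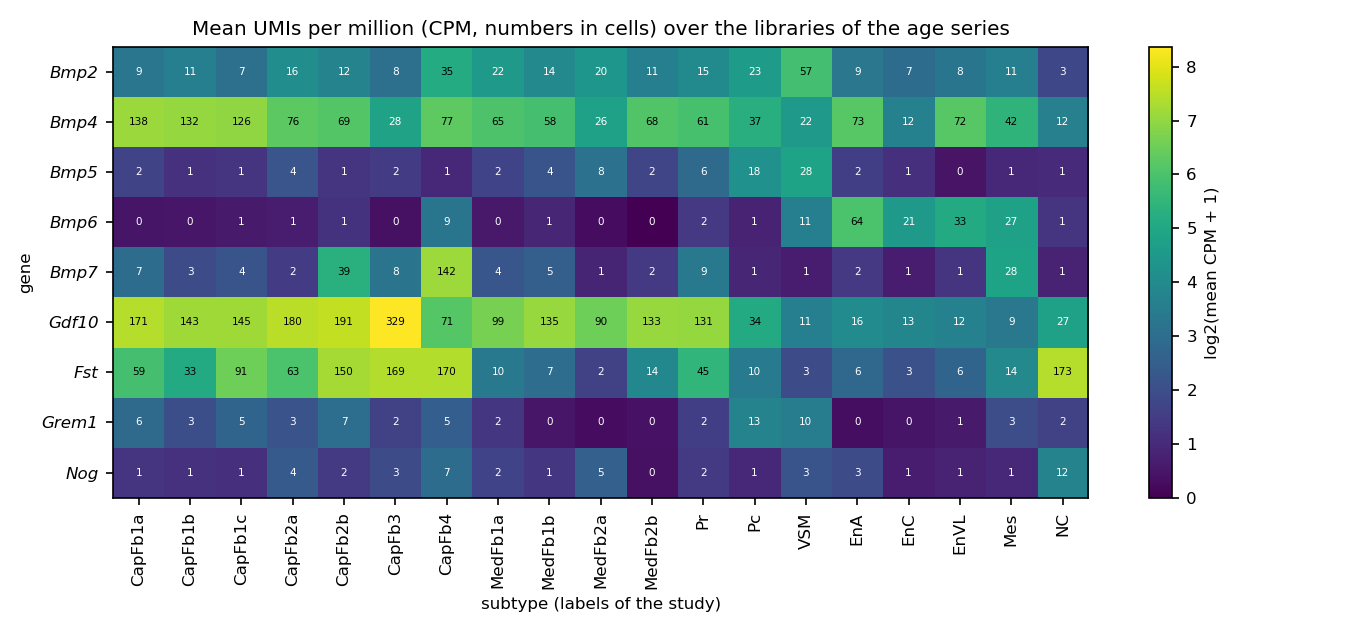
Heat map of the mean level of each gene (vertical axis) in the 19 NETS subtypes (horizontal axis) over the libraries of the age series, with the mean CPM printed in each tile and the colour giving log2(mean CPM + 1). Bmp7 stands out in CapFb4 (142 CPM), Bmp6 in EnA (63.6 CPM) and Bmp2 in VSM (57.4 CPM), whereas Bmp4, Fst and Gdf10 extend over several fibroblast subtypes.

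The sum of the 5 ligands exceeded the sum of Grem1, Nog and Fst in every one of the 8 libraries in CapFb1a (156.03 against 66.97 CPM), CapFb1b (147.9 against 37.8 CPM), the medullary fibroblasts MedFb1a (93.6 against 13.2 CPM), VSM (119.1 against 16.7 CPM), EnA (148.7 against 9.07 CPM) and EnVL (116 against 6.80 CPM). The balance was the other way round in NC (17.4 against 188 CPM, ligands higher in 0 of 8 libraries), CapFb3 (45.5 against 174 CPM, 1 of 8) and CapFb2b (122.4 against 159 CPM, 3 of 8). In CapFb4 both sums were high (263 against 181 CPM, ligands higher in 5 of 8 libraries). Ligands were lower there only in the second P0 library (281 against 301 CPM) and at W4 (233 against 243 and 231 against 251 CPM). In NC, CapFb3, CapFb2b and CapFb4 most of the antagonist sum was Fst, whereas in VSM Fst was 2.84 CPM and Grem1 10.3 CPM, or 2.55 CPM without the E12.5 library, which held 64.8 CPM.

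The genes whose mean level over the 19 subtypes followed that of a member most closely were described by Pearson's r, with all points sharing the same 8 libraries. The closest were Palm2 (r = 0.962) and Notch3 (r = 0.949) for Bmp5, Dact2 (0.943) for Bmp7, Tpm1 (0.886) for Bmp2 and Pir (0.841) for Bmp4. Among the antagonists they were Lrrn2 (0.929) and Col14a1 (0.923) for Fst, Tmem38a (0.839) for Grem1 and Cops9 (0.849) for Nog, and for Gdf10 they were Agtr2 (0.957), Penk (0.946) and Lum (0.944). Within the set, Bmp5 followed Bmp2 (r = 0.648), Fst followed Bmp7 (0.568) and Gdf10 (0.556), and Gdf10 ran opposite to Bmp6 (-0.84).

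In the newborn data, which include the epithelium, 2 of the genes reached their highest mean level in thymic epithelial subtypes rather than in NETS (6 libraries). Bmp2 was highest in mature mTEC (MmTEC; 74.5 ± 27.5 CPM, range 36.5 to 107.4), above VSM (49.5 ± 15.1 CPM). Grem1 was highest in proliferating TEC (PrTEC; 32.2 ± 34.1 CPM, range 4.49 to 93.6), with all 27 other subtypes within 1 SD. Without the highest library PrTEC averaged 19.9 CPM, below intertypical TEC (ItTEC; 23.4 ± 9.35 CPM), with MmTEC at 16.6 ± 8.63 CPM. Bmp7 was again highest in CapFb4 (111 ± 29.8 CPM), with perinatal cTEC (PcTEC) next at 54.2 ± 5.14 CPM and mature cTEC (McTEC) at 39.2 ± 7.04 CPM. Of the other genes, Bmp4, Bmp5 and Gdf10 had their highest level in the same subtype as in the age series: Bmp4 in CapFb1a (102 ± 32.7 CPM), Bmp5 in VSM (59.1 ± 16.3 CPM) and Gdf10 in CapFb3 (234 ± 27.6 CPM, 4 libraries with at least 5 such cells). Fst was highest in CapFb4 (211 ± 86.7 CPM), ahead of NC (206 ± 162.6 CPM), which led in the age series. At the lower depth, Nog reached at most 10.3 CPM, which was 1 UMI, and the highest level of Bmp6 (27.5 CPM in Mes) was 1 UMI as well, followed by 14.7 ± 12.8 CPM in EnVL.

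**Figure D2:**
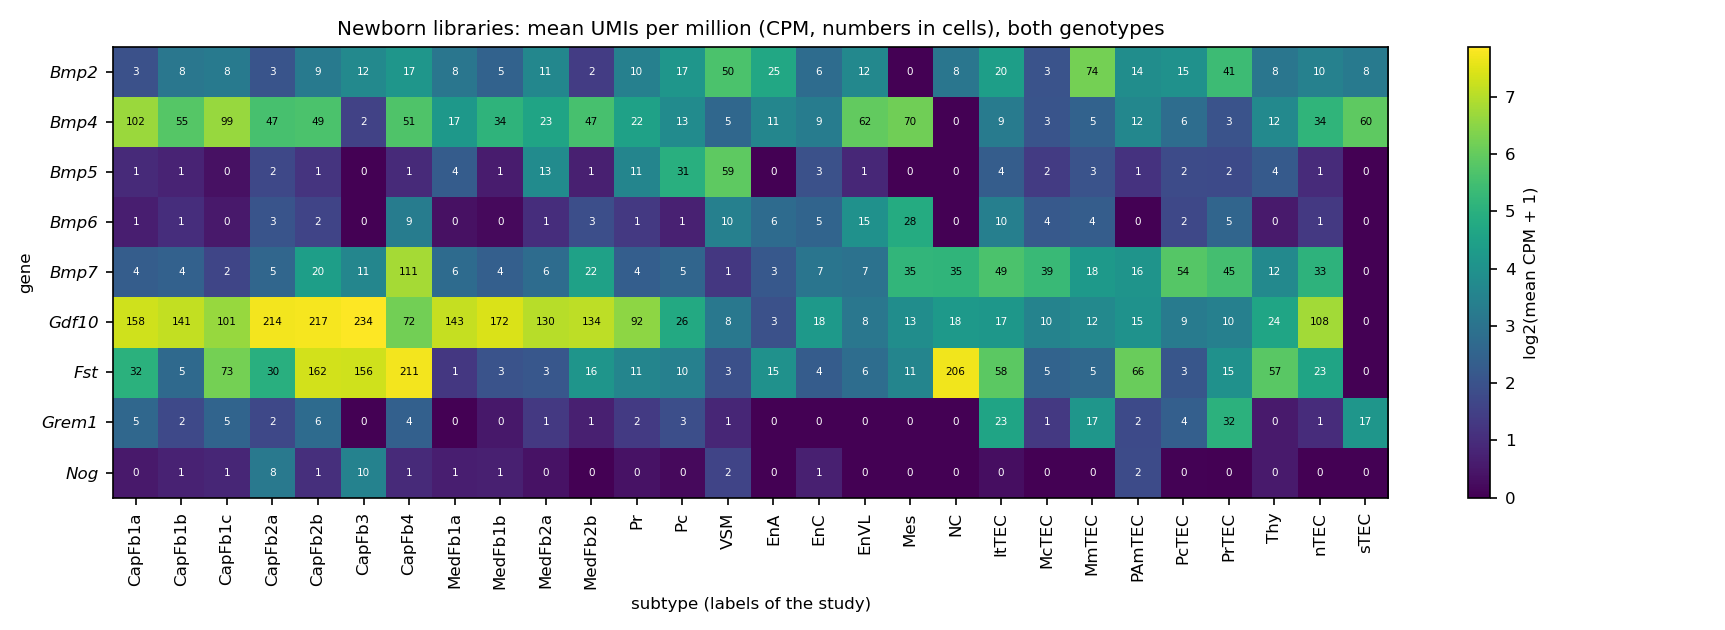
Heat map of the mean level of each gene (vertical axis) in the newborn subtypes, epithelium included (horizontal axis), over the Het and WT libraries together, with the mean CPM printed in each tile and the colour giving log2(mean CPM + 1). Bmp2 and Grem1 are highest in epithelial subtypes (MmTEC at 74.5 CPM and PrTEC at 32.2 CPM), and Bmp7 has intermediate levels across the epithelium below its level in CapFb4 (111 CPM).

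The question of which BMP factors change as the thymus develops was addressed in the 11 subtypes that held 20 or more cells in each of the 8 libraries (edgeR quasi-likelihood test on summed UMIs, Benjamini-Hochberg adjustment over all genes tested). Across the 5 ages, 57 of the 80 combinations of gene and subtype that passed the filter on low counts, of 99 possible, were called at an adjusted p under 0.05, or 71.2%. Of all genes tested in the same 11 subtypes together, 56.7% were called (40.4% to 68.9% by subtype). Bmp4 was called in 11 of 11 subtypes, Gdf10 in 10 of 11, Fst in 9 of 11, Bmp2 in 8 of 11, Nog in 5 of 8, Bmp7 in 4 of 6, Grem1 in 4 of 9, Bmp6 in 3 of 5 and Bmp5 in 3 of 8. Of the 57 calls, 40 were kept under every other processing that was run and 17 were lost under at least 1, among them Bmp4 in CapFb2b and CapFb3 (adjusted p = 0.0809 and 0.0699 with DESeq2) and Nog in CapFb1a, CapFb2b, CapFb3 and the proliferating cells (Pr). Those given with their values below are among the 40. E12.5 and E13.5 had 1 library each, whose spread was taken to be that of the other ages, and age and capture library cannot be told apart. As nothing in the labels ties the libraries of an age to separate litters, the p-values measure the spread between these libraries.

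Bmp4, the most abundant ligand in CapFb1a, differed little there between the libraries up to birth and was higher at W4. In CapFb1a it measured 97.2 CPM at E12.5, 113.4 at E13.5, 99.3 and 95.5 at E16.5, 106 and 92.3 at P0, and 260 and 240 CPM at W4 (adjusted p = 7.18e-09 over the ages by edgeR). Both W4 libraries lay above all 6 earlier ones. In CapFb1b the course was U-shaped, from 242 CPM at E12.5 and 123 at E13.5 through 52.9 and 52.7 at E16.5 and 61.5 and 49.9 at P0 to 222 and 251 CPM at W4. Pericytes showed the early part of that course most clearly, with 154 CPM at E12.5, 41.7 at E13.5, 3.65 and 4.45 at E16.5, 7.49 and 9.16 at P0 and a mean of 36.7 CPM over both W4 libraries for Bmp4. The E12.5 library was thus the highest for Bmp4 in Pc, and the W4 libraries were above those of E16.5 and P0. By flow cytometry the paper found no Ly51+gp38- pericytes earlier than E16.5. Which cells carry the Pc label at E12.5 and E13.5 was not tested, for Bmp4 or any other gene.

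Gdf10 took the opposite course in MedFb1a, the tested medullary subtype. In MedFb1a, Gdf10 was 47.4 CPM at E12.5, peaked at 222 CPM at E13.5, stayed at 138 and 128 at E16.5 and 111 and 115.2 at P0, and was 15.5 and 11.6 CPM at W4 (adjusted p = 5.84e-12 over the ages by edgeR). In the other medullary subtypes, which had too few cells at E12.5 or E13.5 for a test, Gdf10 went from 126 and 179.1 CPM at P0 to 27.1 and 36.6 CPM at W4 in MedFb1b, from 90.9 and 126.9 to 20.5 and 28.9 CPM in MedFb2a, and from 157 and 152 to 61.5 and 109 CPM in MedFb2b. The W4 libraries lay below both P0 libraries in each, with the highest W4 values in MedFb2b. In Pc, Gdf10 went from 2.53 CPM at E12.5 to 66.4 at E13.5 and 60.8 and 70.5 at E16.5, then to 29.97 and 29.2 at P0 and 2.96 and 8.68 CPM at W4. In CapFb3, its highest subtype, Gdf10 was 674 and 373 CPM at P0 and 298 and 391 CPM at W4, which overlapped, while CapFb1b was slightly higher at W4 (177 and 227 CPM) than at P0 (118 and 120 CPM). At W4 Gdf10 was thus at most 15.5 CPM in MedFb1a and Pc and at least 177 CPM in CapFb1b and CapFb3.

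Fst rose with age in CapFb1a and CapFb1b. In CapFb1a, Fst measured 3.50 CPM at E12.5, 8.47 at E13.5, 17.9 and 13.8 at E16.5, 105 and 67.7 at P0 and 126.7 and 130.2 CPM at W4 (adjusted p = 8.30e-11 by edgeR). CapFb1b followed later, with Fst between 1.73 and 3.64 CPM in the 4 embryonic libraries, 18.3 and 11.2 at P0 and 111 and 118 CPM at W4. The groups did not overlap at any step after E16.5 in either subtype. In CapFb2b, Fst was already 81.2 CPM at E13.5 and 269 and 203 CPM at P0, and at W4 it was 257 and 220 CPM (not called between P0 and W4). CapFb4, not tested, had 257 and 292 CPM at P0 and 242 and 250.3 CPM at W4 for Fst. The level at W4 was above P0 in CapFb1a and CapFb1b and not in these 2 subtypes.

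The remaining ligands are given in the subtypes where they were highest. Bmp2 in VSM was 59.8 CPM at E12.5, 27.8 at E13.5, 47.3 and 30.3 at E16.5, 59.9 and 65.7 at P0 and 89.3 and 79.01 CPM at W4 (adjusted p = 0.00678 by edgeR). Both W4 libraries lay above the others. Bmp5 in VSM was 5.82 and 6.58 CPM in the E12.5 and E13.5 libraries and between 26.3 and 43.6 CPM in the 6 later libraries (adjusted p = 0.00115 by edgeR), and in Pc it was 7.60 and 4.94 CPM at those ages and 33.8 and 28.8 CPM at W4. Bmp6 appeared in endothelium with age: in the capillary subtype EnC it was 0 CPM at E12.5, 0.913 at E13.5, 7.87 and 4.82 at E16.5, 14.3 and 7.30 at P0 and 65.4 and 69.95 CPM at W4 (adjusted p = 3.00e-05 by edgeR). In EnVL it went from 0 and 6.87 CPM to 75.9 and 73.6 CPM over the same ages. In EnA, with as few as 10 cells in a library and therefore not tested, Bmp6 was present throughout, at 81.2 and 118.7 CPM in the E12.5 and E13.5 libraries and 60.04 and 23.95 CPM in those of W4. At W4 the libraries of EnC and EnVL thus lay above those of EnA, although EnA had the highest mean over all ages. Bmp7 in CapFb4 was lowest at E12.5 and E13.5 (44.7 and 63.7 CPM), highest at E16.5 (220.3 and 221 CPM) and 124.3 and 122.3 CPM at W4, without a test because CapFb4 held 6 cells at E12.5. In CapFb2b, which could be tested, Bmp7 peaked at the same age, at 76.1 and 70.9 CPM, against 24.8 and 25.2 CPM before and 22.7 and 24.6 CPM at W4 (adjusted p = 2.22e-06 by edgeR).

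**Figure D3:**
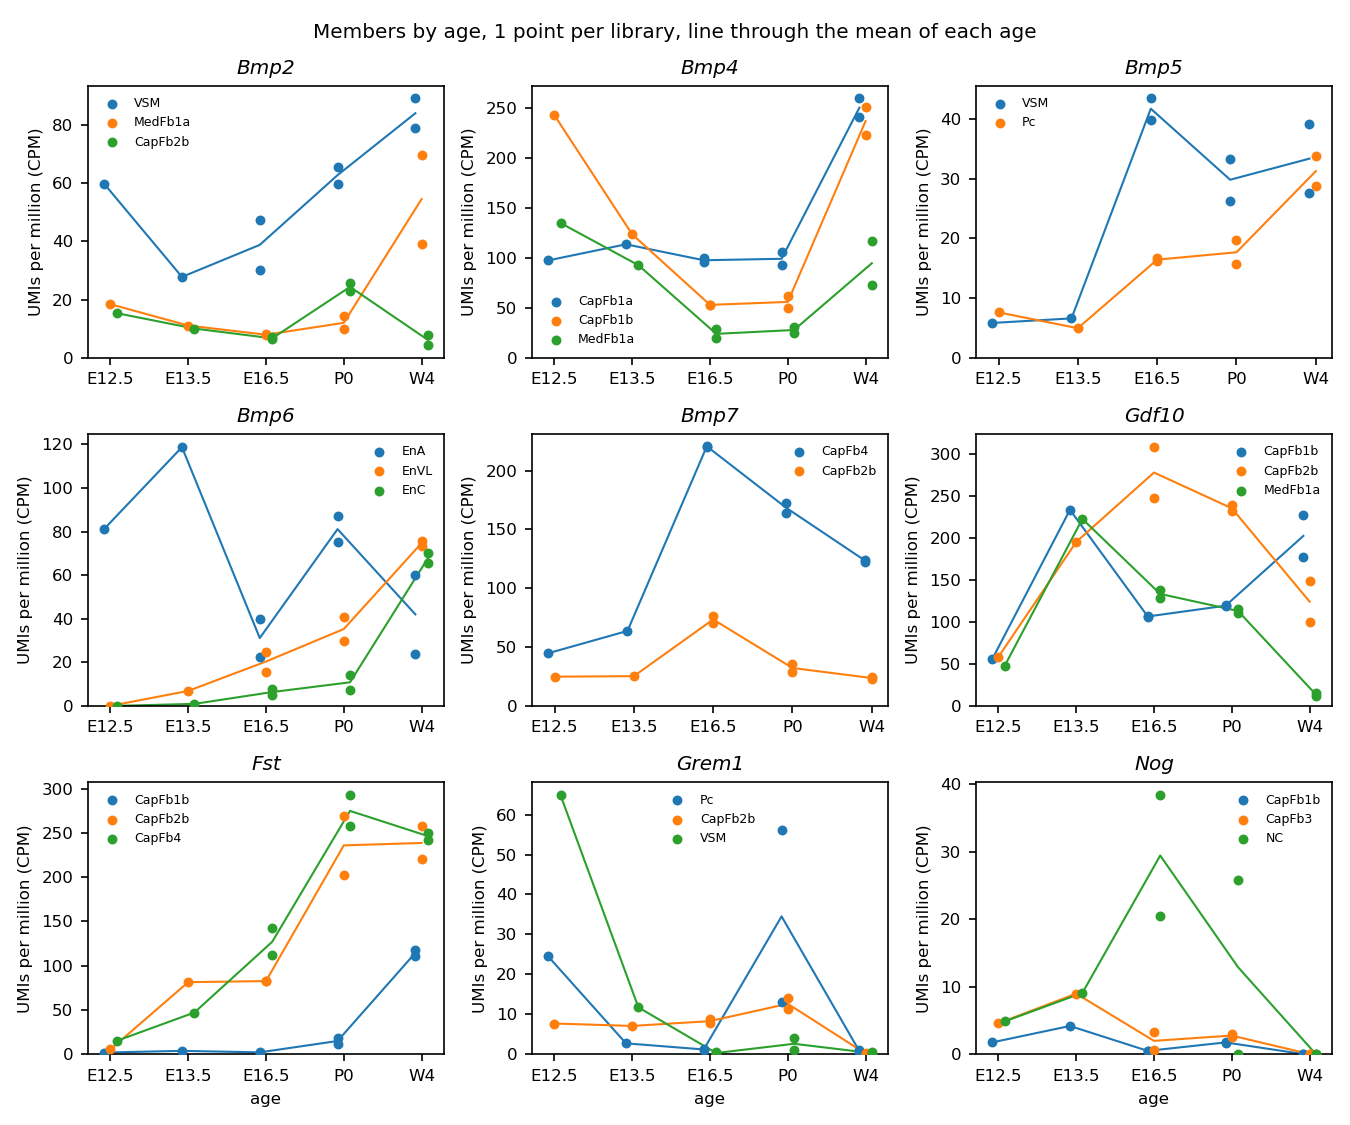
Level (CPM, vertical axis) of each gene by age (horizontal axis, equally spaced) in 2 or 3 subtypes where it was high or called, with 1 point per library and lines through the mean of each age. Bmp4 in CapFb1a is highest at W4 and in CapFb1b at both ends of the series, Fst is higher after birth than before in the capsular subtypes, and Gdf10 in MedFb1a peaks at E13.5 (222 CPM).

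Between P0 and W4, 26 of the same 80 combinations were called, 15 higher and 11 lower at W4, or 32.5%. Of all genes tested in these subtypes together, 25.1% were called, with 12.3% higher and 12.8% lower (10.8% to 44.4% called by subtype). Of the 26 calls, 15 were kept under every other processing that was run and 11 were lost under at least 1, and the latter are given below with the alternatives that lost them. The signalling ligands Bmp2, Bmp4, Bmp5 and Bmp6 were higher at W4 in 10 of their 11 calls, and Grem1 and Nog were lower in 5 of 5.

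Bmp4 was higher at W4 in CapFb1a (log2 fold change 1.41, SE 0.11, adjusted p = 9.30e-08), CapFb1b (2.08, SE 0.10), MedFb1a (1.64, SE 0.22) and Pc (1.89, SE 0.22), and in CapFb2a (1.81, SE 0.37, adjusted p = 0.00722), where leaving out the second W4 library raised the adjusted p to 0.0681 (edgeR). Of all genes tested, 30.2% were called in CapFb1a, 44.4% in CapFb1b, 29.5% in MedFb1a, 32.9% in Pc and 19.5% in CapFb2a. Bmp2 was higher in MedFb1a (2.12, SE 0.27, adjusted p = 6.71e-06), from 14.2 and 9.75 CPM to 69.9 and 39.3 CPM, and lower in CapFb2b (-1.81, SE 0.27, adjusted p = 0.000359), from 23.1 and 25.6 CPM to 4.39 and 7.85 CPM. The direction of Bmp2 thus depended on the fibroblast subtype, without overlap of the libraries in either. Its call in CapFb1b (0.91, SE 0.30) was lost with DESeq2 (adjusted p = 0.144), without the second P0 library (0.102) and without the first W4 library (0.213). The call of Bmp5 in Pc (0.67, SE 0.17, adjusted p = 0.0105) was likewise lost with DESeq2 (adjusted p = 0.23) and without the second P0 (0.063) or the first W4 library (0.122). Bmp6 was higher in EnC (2.61, SE 0.33, adjusted p = 0.000926 by edgeR; 20.4% of genes called), while the call in EnVL (1.02, SE 0.25; 14.6% of genes called) was lost without any 1 of the 4 P0 and W4 libraries and with DESeq2 (adjusted p = 0.361). Bmp7 was not called between P0 and W4 in any subtype tested.

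**Figure D4:**
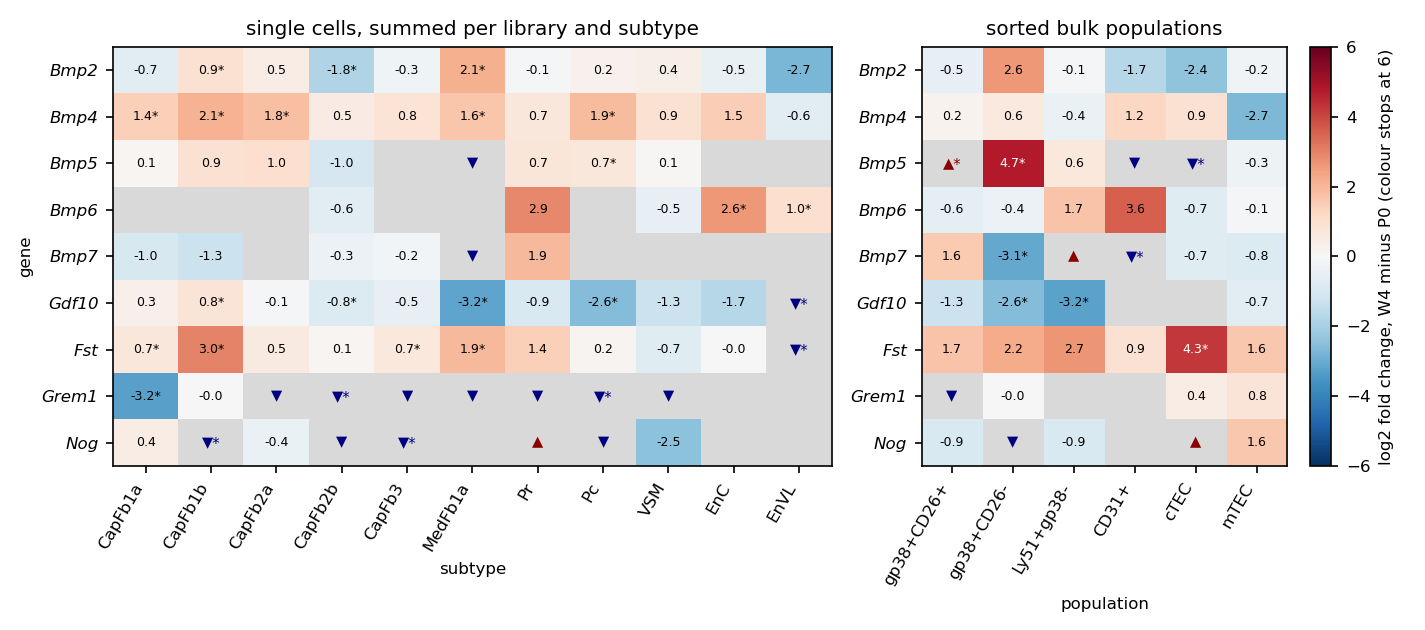
Log2 change from P0 to W4 of each gene (vertical axis) in the tested single-cell subtypes and in the sorted bulk populations (horizontal axes), with the fitted value printed in each tile, colours from blue (lower at W4) to red (higher), and an asterisk where the adjusted p was under 0.05 (26 single-cell and 8 bulk tiles). Plain grey tiles were not tested or hold no fitted fold, and an arrow gives the direction where 1 of the ages had 3 or fewer counts. Every asterisk of Bmp4 is on a positive change (1.41 to 2.08), those of Grem1 and Nog are on negative ones, and those of Fst are on changes in both directions.

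Grem1 came close to 0 at W4 in 3 subtypes. In Pc, Grem1 had 284 UMIs at P0 (56.1 and 13.0 CPM) and 3 at W4 (0.423 and 1.09 CPM), a ratio of 40.1 with a counting interval of 13.6 to 196 (adjusted p = 0.00147 by edgeR, 0.0638 without the first W4 library). In the bulk Ly51+gp38- mural cells, Grem1 had 0 counts in all 6 libraries at P0 and in all 6 at W4, so this change was seen in the single-cell data alone. In CapFb2b the Grem1 counts were 77 and 1 UMIs (ratio 80.1, counting interval 13.96 to 3205; adjusted p = 2.89e-05 by edgeR, 30% of genes called). CapFb1a had 52 and 4 Grem1 UMIs (log2 fold change -3.24, SE 0.65, adjusted p = 0.00129), a call lost without the second W4 library (0.0569). In all 3 subtypes the 2 W4 libraries lay below both P0 libraries. Nog, the other dedicated BMP antagonist, was at 0 in both W4 libraries of CapFb1b, against 31 UMIs at P0, which makes it at least 2.89-fold lower (3 counts over the group as the floor; adjusted p = 0.00696 by edgeR). In CapFb3, Nog went from 16 UMIs to 0 (at least 4.15-fold lower; 19.1% of genes called), but the call was lost with DESeq2 (adjusted p = 0.161), with a replicate block (0.0666) and without any 1 of the E16.5, P0 and W4 libraries (0.0627 to 0.232).

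Fst, by contrast, was higher at W4 in 4 of its 5 calls. The change was largest in CapFb1b (log2 fold change 2.96, SE 0.17, adjusted p = 5.42e-08 by edgeR) and kept under every alternative. Those in CapFb1a (0.66, SE 0.17), CapFb3 (0.65, SE 0.17) and MedFb1a (1.93, SE 0.50) were each lost with DESeq2 (adjusted p = 0.0562, 0.0741 and 0.0576). The call of Fst in CapFb1a was also lost without the second W4 library (0.0908) and that in MedFb1a without the second P0 (0.0587) or the second W4 library (0.522). Without that W4 library the log2 change in MedFb1a was 0.65, since Fst was 9.71 and 35.7 CPM at W4 against 8.06 and 3.96 CPM at P0. The call in CapFb3 did not hold without the second P0, the first W4 or either E16.5 library (0.0539 to 0.138). In EnVL, Fst fell from 25 to 3 UMIs (ratio 7.77, counting interval 2.37 to 40.2), a call lost with DESeq2 (adjusted p = 0.301) and without any 1 of the 4 P0 and W4 libraries (0.077 to 0.133).

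Gdf10 was lower at W4 in MedFb1a (log2 fold change -3.16, SE 0.19, adjusted p = 3.03e-10), Pc (-2.62, SE 0.29, adjusted p = 3.28e-05) and CapFb2b (-0.83, SE 0.16, adjusted p = 0.00235) and higher in CapFb1b (0.75, SE 0.10, adjusted p = 0.000103), all by edgeR and all kept under every alternative. In EnVL, Gdf10 went from 62 UMIs at P0 (40.9 and 17.6 CPM) to 0 at W4, at least 19.3-fold lower (adjusted p = 0.00164 by edgeR). In bulk, the 6 CD31+ libraries at P0 held 1 Gdf10 count in all. The 4 fibroblast markers (Pdgfra, Col1a1, Dcn and Lum) summed to 1261 and 353 CPM in EnVL at this age (P0) and to 222 and 261 CPM at W4. Their part in the results for Gdf10 and Fst in EnVL was not tested. In MedFb1a the same markers went the other way from Gdf10, from 9443 and 8486 CPM at P0 to 18493 and 19321 CPM at W4.

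The bulk libraries measured whole sorted populations, in which fewer cells expressing a gene and less RNA per cell cannot be told apart. The populations carried their defining markers: summed over 4 endothelial markers CD31+ cells had medians of 5253 CPM at P0 and 5430 at W4, against at most 38.1 in any other group, and 5 mural markers were highest in Ly51+gp38- cells (36683 and 100180 CPM), 4 fibroblast markers in the gp38+ populations (29291 to 49795 CPM), and 5 epithelial markers in the TEC groups (at least 1145 CPM, against at most 61.3 in the others). Every group holds 3 libraries with the title prefix TXCK and 3 with DFCK (2 DFCK in the group that lost a library). The labels do not say what the prefixes mean, so values within each are also given for many of the results. Where groups are said not to overlap, here or in the single-cell data, the share of all genes that do the same was not counted.

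Between P0 and W4, 8 of the 54 combinations of gene and sorted population were called (3 higher and 5 lower at W4; edgeR over all 83 libraries), or 14.8%. Of all genes tested in the 6 populations together, 9.86% were called, with 6.05% higher and 3.81% lower, and by population 10.2% in cTEC, 3.91% in mTEC, 10.5% in CD31+, 11.6% in Ly51+gp38-, 9.57% in gp38+CD26+ and 13.46% in gp38+CD26- cells. Of the 8 calls, 7 had the same sign with the TXCK and the DFCK libraries alone, where 10 and 0 combinations were called. The share of all genes called within each prefix is not given.

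Gdf10 was the ligand-like factor with the clearest loss in sorted cells. In gp38+CD26- fibroblasts, which include the medullary subtypes, Gdf10 had a lowest, median and highest value of 494, 546 and 787 CPM at P0 and of 58.7, 81.5 and 140.3 CPM at W4, so that the groups did not overlap (log2 fold change -2.59, SE 0.65, adjusted p = 0.00372; -2.19 in TXCK and -3.01 in DFCK). In Ly51+gp38- mural cells it was 74.3, 111.7 and 150.7 CPM at P0 and 4.82, 7.66 and 19.4 CPM at W4, again without overlap (-3.20, SE 0.68, adjusted p = 0.000718; -3.40 and -3.06). The fibroblast markers of these mural libraries went from a median of 3229 to 1849 CPM in the same interval and the mural markers from 36683 to 100180 CPM, and their part in the change of Gdf10 was not tested. In gp38+CD26+ cells, Gdf10 was 181, 330 and 381 CPM at P0 and 47.9, 101.4 and 217 CPM at W4, which overlapped. With DFCK libraries alone, the adjusted p of Gdf10 was 0.161 in gp38+CD26- cells and 0.185 in mural cells (edgeR).

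Bmp5 and Bmp7, both of the same ligand subclass, changed in several populations. Bmp5 rose in gp38+CD26- cells from 0, 0 and 1.60 CPM to 3.70, 6.44 and 9.32 CPM (lowest, median and highest; log2 fold change 4.75, SE 1.43, adjusted p = 0.018). All 21 counts at P0 came from 1 DFCK library, and the TXCK libraries were at 0. The change was 3.65 in DFCK alone (adjusted p = 0.393). In gp38+CD26+ cells Bmp5 had 0 counts at P0 and 61 at W4, at least 20.1-fold higher (adjusted p = 0.00733, but 0.0527 in TXCK and 0.305 in DFCK alone). In cTEC it had 227 counts at P0 and 0 at W4, at least 86.5-fold lower (adjusted p = 0.000905 by edgeR, and 0.137 in DFCK alone). Its level in the P0 cTEC libraries was low as well, with a median of 1.39 CPM and a highest value of 9.18 CPM. Bmp7 fell in gp38+CD26- cells from 0.0727, 3.77 and 5.22 CPM to 0, 0 and 1.13 CPM (-3.09, SE 0.90, adjusted p = 0.0138; -2.61 in DFCK, with 73 counts at P0 and 0 at W4 in TXCK). Its call in CD31+ cells (0 counts at W4, adjusted p = 0.00667) rested on 43 counts that all came from 1 DFCK library at P0.

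Fst in cTEC went from 0, 1.54 and 3.66 CPM at P0 to 6.80, 21.3 and 80.7 CPM at W4 (log2 fold change 4.25, SE 1.16, adjusted p = 0.00936; 4.12 in TXCK with an adjusted p of 0.184 and 4.40 in DFCK with 0.230). Fibroblast markers in cTEC were higher at W4 too, from a median of 56.8 CPM (range 12.6 to 124.8) to 645 CPM (340 to 1791), as did the 4 mesothelial markers from 2.79 to 385 CPM (16.6 to 2683 at W4), and their part in the level of Fst was not tested. In gp38+CD26+ fibroblasts, Fst was 36.8, 56.2 and 121 CPM at P0 and 178, 183 and 208 CPM at W4. These groups did not overlap, but the change was not called (1.69, adjusted p = 0.374), and the same held for Fst in mTEC (1.61, adjusted p = 0.514), Bmp2 in gp38+CD26- cells (2.61, adjusted p = 0.187) and Bmp6 in CD31+ cells (3.60, SE 1.71, adjusted p = 0.189). Bmp6 in CD31+ cells had 0, 1.91 and 6.72 CPM at P0 and 18.6, 33.7 and 36.2 CPM at W4. Bmp4 was not called in any of the 6 populations: in gp38+CD26+ cells it was 114, 138 and 229 CPM at P0 and 99.0, 170 and 214 CPM at W4. Its log2 changes were 0.20 in gp38+CD26+, 0.60 in gp38+CD26-, 1.24 in CD31+ cells and 0.91 in cTEC. They were -0.39 in Ly51+gp38- cells and -2.70 in mTEC. The rise of Bmp4 in single-cell Pc was thus not seen in the sorted mural cells, and the reason was not tested.

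**Figure D5:**
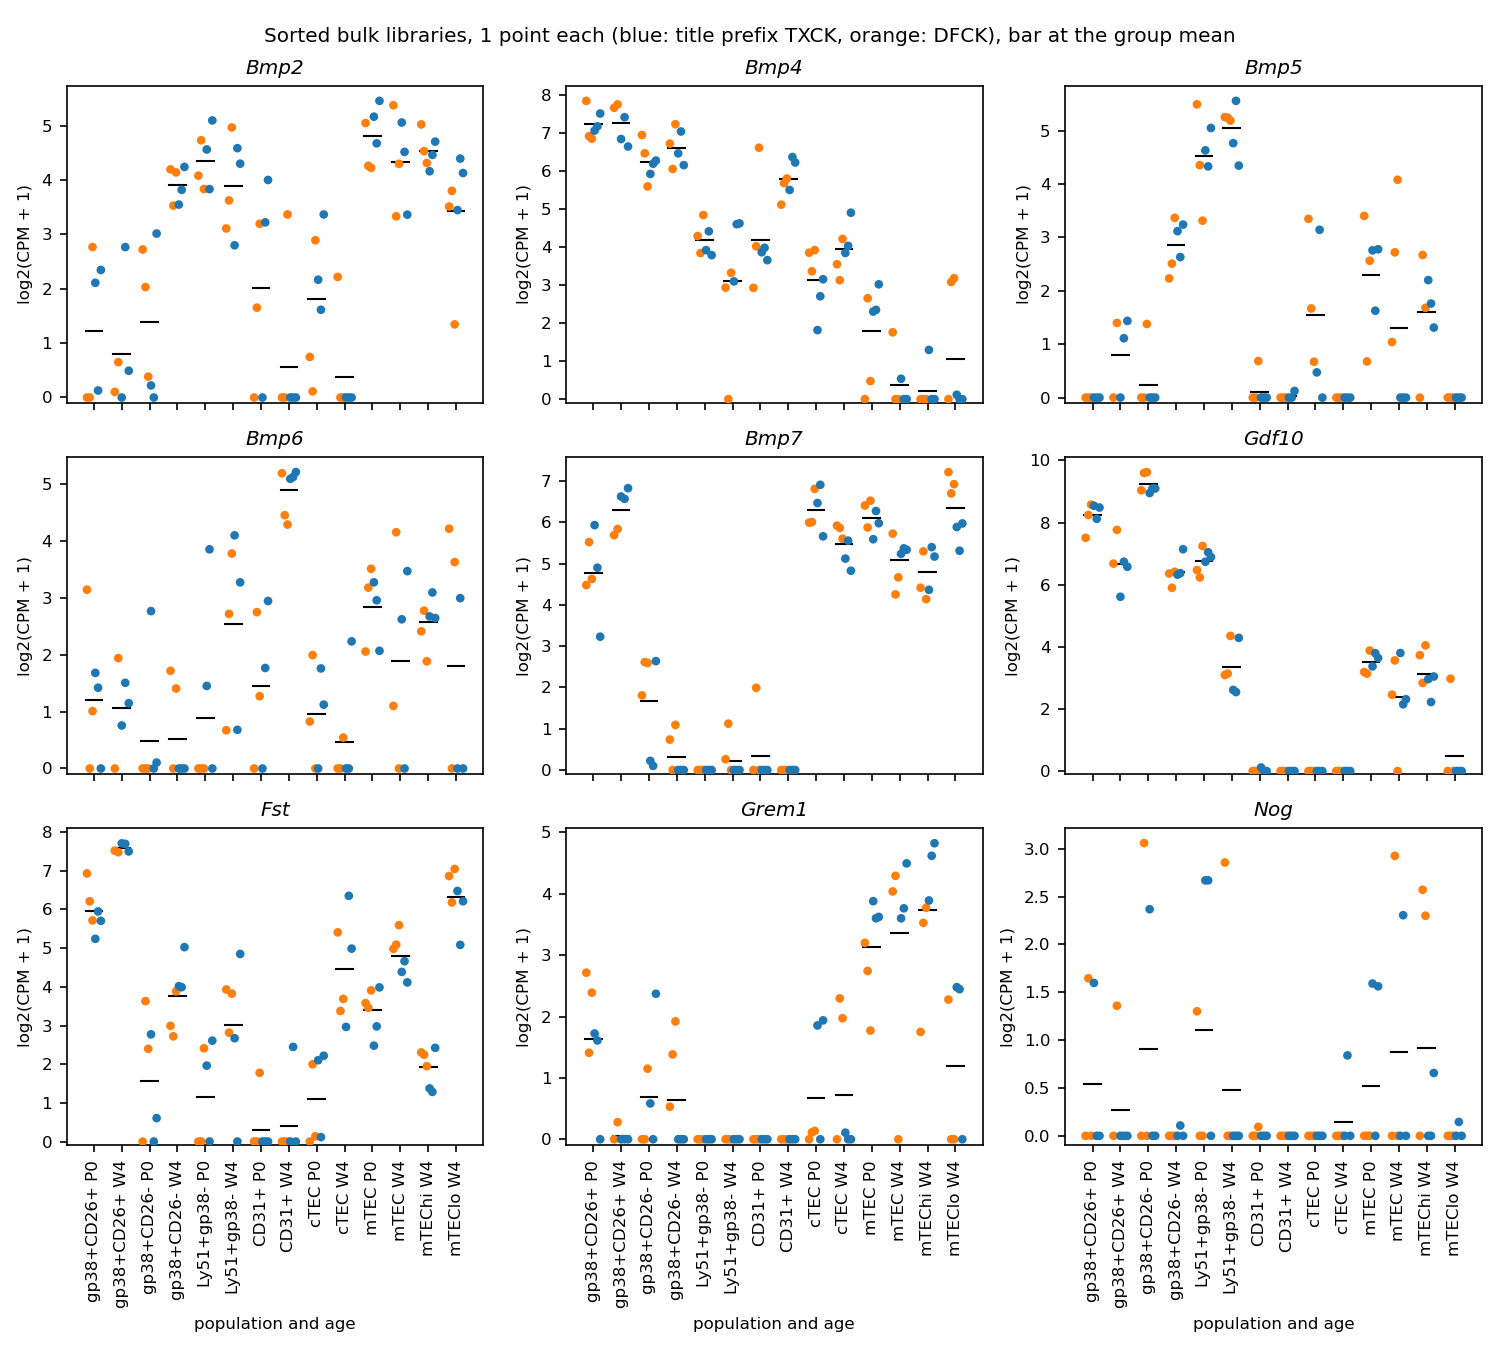
Level of each gene in the sorted populations at P0 and W4 (horizontal axis) as log2(CPM + 1) (vertical axis), 1 point per bulk library, coloured by title prefix (blue TXCK, orange DFCK), with a bar at the mean of each group. Gdf10 in gp38+CD26- cells lies between 494 and 787 CPM at P0 and between 58.7 and 140.3 CPM at W4, and Bmp7 in gp38+CD26+ cells lies between 50.4 and 112.3 CPM at W4.

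Sorted populations of the same age were compared next, to find which of them carries each factor. Of 99 combinations, 43 were called (15 higher and 28 lower in the population named first), or 43.4%. Of all genes in the 11 comparisons together, 24% were called, with 9.75% higher and 14.2% lower (4.2% to 42.7% by comparison). For 40 of the 43 the sign was the same in the TXCK and DFCK libraries, and 16 were kept under every alternative that was run. The sorting was made on surface proteins and not on these genes. The labels do not say whether several populations were sorted from the same animals, and the fit treats all libraries as independent.

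The 2 fibroblast populations differed in Bmp7 and Fst. At P0, Bmp7 was 8.37, 26.3 and 59.9 CPM in gp38+CD26+ cells (lowest, median and highest) and 0.0727, 3.77 and 5.22 CPM in gp38+CD26- cells (log2 difference 3.47, SE 0.85, adjusted p = 0.00987; 4.26 in TXCK and 2.93 in DFCK, where the adjusted p was 0.271; 4.2% of genes called). At W4, Bmp7 was 50.4, 93.7 and 112.3 CPM in CD26+ and at most 1.13 CPM in CD26- cells (8.14, SE 1.09, adjusted p = 1.20e-07; 6.50 in DFCK, with 4028 and 0 counts in TXCK; 6.03% of genes called). Fst was higher in CD26+ cells by 4.30 at P0 (SE 1.15, adjusted p = 0.0171) and by 3.76 at W4 (SE 1.14, adjusted p = 0.0305) on the log2 scale, without overlap at either age. None of the CD26- libraries exceeded 11.4 CPM at P0 or 31.6 CPM at W4 for Fst. The call of Fst did not pass within either prefix alone at P0 (adjusted p = 0.335 in TXCK and 0.263 in DFCK) or at W4 (0.345 and 0.332).

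The age change itself differed between the 2 fibroblast populations for Bmp7: the change from P0 to W4 was larger in CD26+ than in CD26- cells by 4.67 on the log2 scale (SE 1.21, adjusted p = 0.0176 by edgeR; 3.58 in DFCK, where the adjusted p was 0.536, with a group at 0 in TXCK). In the 3 comparisons of age changes, 3 of 27 combinations were called, or 11.1%, against 3.51% of all genes (2.87% to 4.28% by comparison). Mesothelial markers in the gp38+CD26+ libraries went from a median of 65.5 CPM (range 0 to 511) at P0 to 4721 CPM (691 to 6256) at W4, whereas fibroblast markers were 47483 and 49795 CPM. Bmp7 was also detected in Mes of the single-cell data, at 41.4 and 63.2 CPM at P0 and 48.3 and 23.8 CPM at W4, and the part of mesothelium in the bulk result for Bmp7 was not tested. The other 2 calls were of Bmp5, for cTEC against mTEC (adjusted p = 0.0179) and for Ly51+gp38- against gp38+ cells (adjusted p = 0.0498). Both rest on groups at 0. The first changed sign in TXCK libraries, and the second was lost under 6 of the 7 alternatives that were run (adjusted p = 0.0514 to 0.667).

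Mural cells were compared with the gp38+ fibroblasts gene by gene. In Ly51+gp38- cells, Bmp5 was 8.95, 21.6 and 44.0 CPM at P0 and 19.3, 36.1 and 46.1 CPM at W4, above every library of gp38+ fibroblasts at both ages (at most 1.60 CPM at P0 and 9.32 CPM at W4). The difference from gp38+ cells passed at P0 (adjusted p = 8.20e-07, with 1 group at 0) and at W4 (log2 difference 3.62, adjusted p = 0.00985, and 0.0580 in TXCK and 0.180 in DFCK alone; 13.2% and 21.7% of genes called at P0 and W4). Bmp2 was higher in mural cells at P0 (2.91, adjusted p = 0.0435 by edgeR), with an adjusted p of 0.0561 without the filter on low counts, 0.171 in TXCK and 0.422 in DFCK alone. At W4 the difference of Bmp2 was not called (1.72, adjusted p = 0.283). Bmp4 was lower in them at P0 (-2.75, adjusted p = 0.0164) and W4 (-3.54, adjusted p = 0.00149), as was Gdf10 (-2.10, adjusted p = 0.0107, and -3.37, adjusted p = 6.41e-05). With DFCK libraries alone these were lost for Bmp4 at P0 (adjusted p = 0.296) and for Gdf10 at P0 (0.285) and W4 (0.0590). Bmp7 was at 0 in all 6 P0 libraries and had 10 counts in all at W4. Grem1 was at 0 in every mural and every CD31+ library at both ages. The 6 mural libraries at P0 held at least 9220337 gene counts each. The Grem1 of the single-cell pericytes at P0 was thus not seen in bulk, and the reason was not tested.

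CD31+ endothelium stood apart from the other nonepithelial cells by Bmp6 at W4 (log2 difference 3.85, SE 1.18, adjusted p = 0.00934; 6.06 in TXCK and 3.31 in DFCK, where the adjusted p was 0.226; 25.1% of genes called). It contained almost no Gdf10 (1 count at P0 and 0 at W4), with adjusted p-values of 6.42e-15 and 8.56e-13 for the difference from the other nonepithelial cells, and Fst was lower there by 4.23 at P0 (adjusted p = 0.00208, and 0.108 in DFCK alone; 27.5% of genes called) and by 5.50 at W4 (adjusted p = 0.000159; log2 scale, edgeR). Bmp4 was 33.7, 52.5 and 81.5 CPM in CD31+ cells at W4.

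In the epithelium, cTEC and mTEC both contained Bmp7, at medians of 75.3 and 69.1 CPM at P0 and 46.7 and 38.0 CPM at W4. Bmp2 was found mainly in mTEC, at 9.07, 20.3 and 40.5 CPM at W4 against 0, 0 and 3.65 CPM in cTEC (log2 difference cTEC minus mTEC -5.27, adjusted p = 0.00403, and 0.187 in DFCK alone; 32.2% of genes called). Bmp4 had the opposite pattern at W4, with 7.74, 14.4 and 28.9 CPM in cTEC and at most 2.38 CPM in mTEC (4.84, adjusted p = 0.000185, and 0.0960 in DFCK alone), and the fibroblast markers of W4 cTEC given above were a median of 645 CPM against 318 CPM in mTEC. Gdf10 was at 0 in every cTEC library and therefore at least 227-fold lower than in mTEC at P0 (751 counts, adjusted p = 3.59e-09; 32.1% of genes called) and at least 147.7-fold lower at W4 (378 counts, adjusted p = 3.19e-08). The median log2 difference of all genes in these 2 comparisons was -0.44 and -0.33. Fibroblast markers at P0 had medians of 56.8 CPM in cTEC and 434 CPM in mTEC, whereas at W4 they were higher in cTEC, as given above. Mural markers had medians of 2563 and 2199 CPM in mTEC at P0 and W4, against at most 191.6 and 822.7 CPM in cTEC. The part of nonepithelial RNA in the Gdf10 of mTEC was not tested. Fst was lower in cTEC than in mTEC at P0 (-2.71, adjusted p = 0.0478), a call that was lost without the filter (0.0595), with a prefix term (0.0504) and within each prefix. Nog was called at P0 on 47 counts in 2 mTEC libraries and lost with DESeq2 (adjusted p = 0.324).

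Grem1, rare in NETS, was detected in the medullary epithelium. It was 2.41, 9.67 and 13.7 CPM in mTEC at P0, 0, 14.01 and 21.6 CPM in mTEC at W4 and 2.36, 13.3 and 27.3 CPM in mTEChi. Grem1 was not called between cTEC and mTEC at P0 (adjusted p = 0.106 by edgeR) or W4 (0.0744). Nor was it called between mTEChi and mTEClo (0.182), where mTEClo had a median of 1.92 CPM. In the newborn WT and Het libraries, PcTEC held means of 28.3% and 17.7% of Grem1 UMIs, and MmTEC 7.68% and 16.4%. These shares depend on cell numbers as well. The contrast of nonepithelial minus epithelial populations was negative for Grem1 at P0 (log2 difference -4.27, adjusted p = 8.28e-05; -2.26 with an adjusted p of 0.184 in DFCK alone; 39.7% of genes called) and W4 (adjusted p = 7.98e-07; 42.7% of genes called). It includes CD31+ and Ly51+gp38- cells at 0 counts, so its fitted size depends on the prior count. Grem1 in cTEC was low as well, with medians of 0.0898 CPM at P0 and 0.0386 CPM at W4. In gp38+CD26+ and gp38+CD26- cells the medians were 2.18 and 0.250 CPM at P0 and 0 and 0.222 CPM at W4. The same contrast was positive for Bmp4, with log2 differences of 3.25 at P0 (adjusted p = 6.65e-06) and 4.56 at W4 (adjusted p = 2.83e-08 by edgeR). Between mTEChi, the mature cells that present self-antigens, and mTEClo, 19% of genes were called. Fst was 1.43, 3.30 and 4.36 CPM in mTEChi and 32.9, 80.7 and 131.3 CPM in mTEClo (-4.59, SE 1.17, adjusted p = 0.00373, and 0.123 in TXCK and 0.0752 in DFCK alone). Gdf10 (3.06, adjusted p = 0.00154) and Bmp5 (203 against 0 counts, at least 52.2-fold, adjusted p = 0.00109) were higher in mTEChi. All 79 Gdf10 counts of mTEClo came from 1 DFCK library (6.85 CPM), and with DFCK libraries alone the adjusted p was 0.177 for Gdf10. The call of Bmp4 (-3.08, adjusted p = 0.0227) turned to 3.82 in TXCK libraries, on 21 counts of 1 mTEChi library against 1 count in mTEClo. In DFCK libraries Bmp4 had 0 counts in mTEChi. The Fst values of mTEChi and mTEClo did not overlap, and how many of all genes do the same was not counted.

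In the newborn libraries, Tbx1 had 0, 0 and 8 UMIs in the 3 libraries labelled Het and 13, 6 and 19 UMIs in those labelled WT, or 0, 0 and 0.872 CPM against 1.79, 0.441 and 0.605 CPM. Crkl was 24.1, 23.6 and 26.9 CPM in libraries labelled Het and 22.99, 25.1 and 18.4 CPM in those labelled WT. The level of neither Tbx1 nor Crkl separated the labels. A 3′ tag outside the altered part of an allele checks nothing, and whether that applies to Crkl was not given in the sources used here.

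None of the 9 genes was called between genotypes in 18 subtypes (0 of 38 combinations that passed the filter, of 162 possible; edgeR), where 0.0481% of all genes tested were called (0% to 0.276% by subtype). DESeq2 called 0 as well, and 3 of the 38 combinations (7.89%) had an unadjusted p under 0.05, near the 6.72% of all genes tested. Gdf10 in Pc was 22.6, 15.2 and 14.1 CPM in the libraries labelled Het and 38.1, 29.6 and 39.3 CPM in WT, which did not overlap (log2 difference -1.17, SE 0.29, adjusted p = 0.124). Grem1 in PcTEC was 2.23, 1.79 and 0.40 CPM against 8.16, 8.01 and 4.73 CPM (-2.19, SE 0.51, adjusted p = 0.643), and Bmp4 in CapFb1a was 109, 149.4 and 118 CPM against 77.1, 55.4 and 100.2 CPM (0.67, SE 0.28, adjusted p = 0.547). These 3 were given because they had an unadjusted p under 0.05, and none passed the adjustment over all genes. How many of all genes separate 3 from 3 libraries in this way was not counted. With no filter on low counts, Gdf10 in Pc (adjusted p = 0.0341) and Grem1 in PcTEC (0.0208) passed in edgeR. The share of all genes called without the filter is not given, so these calls have no background beside them.

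The wider pathway was counted in lists of other BMP genes. From P0 to W4 in the single-cell subtypes, 46 of 117 tests of receptors and co-receptors were higher and 6 lower, and 38 of 105 tests of other antagonists were higher and 10 lower, against the 25.1% called over all genes. Of the Smad genes 5 tests were higher and 1 lower of 59, of the target genes 13 were higher and 13 lower of 114, and of other ligands of the family 11 were higher and 9 lower of 46. Nbl1, a secreted antagonist of the same family as Grem1, was higher at W4 in CapFb1a (log2 fold change 2.18), CapFb1b (2.28), CapFb2a (3.102), CapFb2b (2.07), CapFb3 (2.14), Pc (1.40) and Pr (1.98). In CapFb1a, CapFb2b and Pc this was the opposite direction to the calls of Grem1. Nbl1 in MedFb1a (0.81) and VSM (1.34), also higher, and Id3 in EnVL below were named after their values were seen. The target genes Id1 and Id2 moved apart: Id2 was higher in CapFb1a (1.54), CapFb1b (2.12) and MedFb1a (1.71), while Id1 was lower in CapFb1a (-1.03), CapFb1b (-0.75) and MedFb1a (-1.79). Sostdc1, another antagonist, was lower in CapFb1a (-3.46).

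In the sorted populations, 13 of 66 tests of target genes were higher and 1 lower between P0 and W4, and 2 and 0 of 66 tests of receptors, where 6.05% of all genes were higher and 3.81% lower. Id2 and Id3 were higher at W4 in cTEC (2.39 and 2.45), mTEC (1.64 and 1.77) and gp38+CD26- cells (1.75 and 1.45). In the single-cell subtypes Id3 was lower at W4 in MedFb1a (-0.81) and VSM (-0.72) and higher in EnVL (0.67). Other antagonists were higher in 11 and lower in 3 of 78 tests, among them Nbl1 in gp38+CD26+ cells (2.42) and Sostdc1 in gp38+CD26- cells (-4.07). No gene of the pathway lists was called between genotypes in 96 tests of receptors, 66 of Smads, 80 of targets, 12 of other ligands and 59 of other antagonists (edgeR).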

How the data were processed

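Single-cell RNA-seq (10x Genomics) was performed on sorted thymic stroma at 5 ages and on newborn Tbx1+/-Crkl+/- and wild-type thymi, and bulk RNA-seq on sorted populations of wild-type mice. The authors deposited whole-number UMI counts per gene and cell with their subtype names, and whole-number read counts per gene and bulk library. The submitters' processing notes name Cell Ranger 3.1.0, STAR 2.5.3a and HTSeq and the builds GRCh38 and mm10, with no role for each. Per the study's methods, the authors kept cells by genes detected and mitochondrial share, removed doublets, leukocytes and contaminating clusters, and took out clusters of 1 replicate, so that the deposited cells are a selection that the subtype levels depend on. Rows naming no gene (7.81% to 16.6% of bulk reads per library) were left out of library sizes.

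UMIs were summed per library and subtype for subtypes with at least 20 cells in every library tested (5 cells for levels), and tested with edgeR 4.0.16 (quasi-likelihood F-test, TMM, filterByExpr; limma 3.58.1, R 4.3.3). The single-cell fits held all libraries of a data set and the bulk fit all 14 groups, leaving out 1 library under 1000000 gene counts, of which 29.4% of reads lay in no gene. P-values were adjusted by Benjamini-Hochberg over all genes of each contrast, with a threshold of 0.05. A gene with 3 or fewer counts in a group was given a bound or a counting interval (3 counts over the group as the floor) in place of a fitted fold, and such intervals cover counting error only. The members were chosen by name, and members and pathway lists were chosen with earlier results of these data known. All members are named. Of the pathway lists, those with the smallest adjusted p in each direction of a contrast are named, at most 2, and of genes that follow a member over subtypes the 3 with the highest r of log2(CPM + 1) among genes reaching 10 CPM in a subtype. Some of the genes this rule selects are not reported here. Libraries shared at most 0.275% of their cell barcodes.

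Tested on simulated counts with known changes, the fit recovered 71.4%, 85.7%, 97.9% and 95.9% of log2 changes of 1, 2, 3 and 4 in CapFb1a between P0 and W4 (11944 genes), 53.2% and then 100% for the 3 larger sizes between genotypes in newborn CapFb1a (5360 genes), and 8.51%, 25.5%, 36.2% and 42.9% in bulk gp38+CD26+ cells between P0 and W4 (19708 genes). Alternatives were DESeq2 1.42.0, other size factors, no filter on low counts, other cell minimums, a replicate block, each library left out in turn, and for the bulk data all libraries, a term for the title prefix, each prefix alone and the 2 compared groups alone. Python 3.11.15 with numpy 2.4.6, pandas 2.3.3 and scipy 1.17.1 was used for levels.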

Additional observations from a re-analysis of the deposited data

Results flagged for a closer look

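In the bulk data, each group of 5 or 6 libraries was examined for a library whose gap to its neighbour took up an unusual share of the group's range (Dixon's 95% critical value), a criterion that chance meets in about 5% of groups. Of all groups of gene and population whose libraries were not all equal, 30 met it (26.8%), of which 23 had at least 4 libraries at 0. In the other 7 the highest library stood apart. Bmp2 was 5.80 CPM in gp38+CD26+ cells at W4 replicate 5 (the next library was 0.569 CPM), Bmp4 96.8 CPM in CD31+ cells at P0 replicate 6 (next 15.2 CPM) and Bmp5 15.9 CPM in mTEC at W4 replicate 3 (next 5.59 CPM). Bmp6 was 7.86 CPM in gp38+CD26+ cells at P0 replicate 4 (next 2.21 CPM) and Grem1 4.18 CPM in gp38+CD26- cells at P0 replicate 3 (next 1.22 CPM). A single library of gp38+CD26- cells at W4, replicate 6 with the prefix TXCK, held the highest value of both Fst (31.6 CPM, next 15.2) and Gdf10 (140.3 CPM, next 84.4). Even with that library, Gdf10 at W4 lay below every P0 library.

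The change from P0 to W4 differed between sorted populations in 3 tests of the difference itself (edgeR, adjusted over all genes). It was larger in gp38+CD26+ than in gp38+CD26- cells for Bmp7 (log2 difference 4.67, adjusted p = 0.0176), lower in cTEC than in mTEC for Bmp5 (-7.80, adjusted p = 0.0179) and lower in Ly51+gp38- than in gp38+ cells for Bmp5 (-5.08, adjusted p = 0.0498). The last of these was lost under 6 of 7 alternatives (adjusted p = 0.0514 to 0.667). Both values of Bmp5 were fitted with a group at 0 counts and depend on the prior count.

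In the single-cell data, 3 genes changed in opposite directions in different subtypes between P0 and W4, with every W4 library on its side of both P0 libraries. The difference between subtypes was not tested, and how many of all genes do the same was not counted. Of all genes tested in the 11 subtypes together, 12.3% were called higher and 12.8% lower at W4. For Bmp2 the log2 changes were 2.12 in MedFb1a and -1.81 in CapFb2b. For Fst they were 2.96 in CapFb1b and -2.94 in EnVL, the latter fitted on 25 and 3 UMIs. The call of Fst in EnVL was lost with DESeq2 (adjusted p = 0.301) and without any 1 of the P0 and W4 libraries. For Gdf10 they were 0.75 in CapFb1b and -8.28 in EnVL, where the second value was fitted against 0 UMIs at W4 and depends on the prior count, so that the bound of at least 19.3-fold given above applies. The 6 sorted CD31+ bulk libraries at P0 held 1 Gdf10 count in all.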

How the results depend on the processing

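The share of all genes called under each alternative is not given in this section. Whether a change in the number of calls concerns these genes or all genes therefore cannot be told. Over the 5 ages, 57 calls of 80 became 48 with DESeq2, 57 with other size factors and 49 to 62 with 1 library left out. Between P0 and W4, the 26 calls of 80 became 40 of 105 with a minimum of 10 cells, 17 of 51 with 50 cells, 41 of 99 with no filter on low counts, 19 with DESeq2, 27 with other size factors and 20 to 36 with 1 library left out; more or fewer subtypes and genes were tested under the first 3. No called change of a single gene turned its direction there. With DFCK libraries alone, the bulk calls went from 8 to 0 between ages, from 43 to 23 between populations and from 3 to 0 for differences of age change, and with TXCK alone to 10, 33 and 2; these fits have 2 or 3 libraries a group. The reversals were 2, both with TXCK alone, for Bmp4 in mTEChi against mTEClo (3.82) and the Bmp5 age change in cTEC against mTEC (0.91), and their cause was not tested. DESeq2 gave 11, 44 and 3 bulk calls. Between genotypes, no filter on low counts gave 2 calls, with no share of all genes given beside them, and leaving out a library 0 to 0.

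In the single-cell data, the main fits did not pair libraries by replicate number. Deviations of same-numbered libraries correlated at -0.117, 0.0113 and -0.278 over the ages and at 0.226, -0.0312 and -0.590 between genotypes. Differently numbered libraries were not compared, and with 2 libraries at an age both numbers give the same value. These correlations therefore cannot show whether the numbers pair the libraries. Pairing of the bulk libraries between sorted populations was not checked. With a replicate block the calls were 53 over the ages, 31 between P0 and W4 and 0 between genotypes. Levels in the highest subtype moved by less than 1 SD with pooled UMIs or 20 cells. By the share of cells with a UMI after thinning to 2000 UMIs, the highest subtype by mean level ranked 1 for 6 genes, 2 for Bmp4, 4 for Grem1 and 6 for Fst. The 2 means of Grem1 without their highest library, given above, were chosen after seeing the data.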

Other observations

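The share of a library's UMIs that came from each subtype depends on cell numbers as well as on level, and the sorting and cell selection enter into it. CapFb4 contributed most of the Bmp7 UMIs of the age series at E16.5 (mean of 61.8% of a library's Bmp7 UMIs), P0 (59.7%, 49.1% and 70.2% in the 2 libraries) and W4 (63.8%). The age series was sorted without epithelium. In the newborn data, which include it, PcTEC held means of 51.9% (WT) and 59.2% (Het) of Bmp7 UMIs, and CapFb4 10.9% and 5.09%. The source of Bmp6 in the age series differed between ages. EnA held 83.3% of Bmp6 UMIs at E13.5 (169 UMIs), VSM a mean of 42.2% at P0 with 23.4% and 61.1% in the 2 libraries, and EnC 37.4% at W4. In the same series, Pc held a mean of 39.0% of Grem1 UMIs at P0, and for Bmp4, which is spread over the fibroblasts, CapFb1a held 9.78% to 19.5% at every age.

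The bulk library that was left out of the gp38+CD26+ group at W4 held 2 counts of Fst and 0 of the other 8 genes among 25702 gene counts.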
